A study of Xenopus laevis with 8 samples.

Results

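Hedgehog ligand, receptor and GLI genes were read on 11 probe sets of 9 genes, found by their gene symbol in the annotation of the array, out of 15491 probe sets that were not controls, and are 9 of the 7531 genes with a symbol of their own there. The genes were shh.L, ptch1.S, hhip.L, smo.L, smo.S, gli2.L, gli2.S, gli3.L and gli1.S, where .L and .S mark the long and the short copy of a gene in the duplicated genome of the frog *Xenopus laevis*. hhip.L and smo.L each had a pair of probe sets, which were kept apart, and the other genes had 1 probe set each. A further probe set annotated to both copies of gli2 was left out.

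RNA came from whole hindlimb buds of tadpoles at stage 52, cut at the base of the limb and pooled from 18 to 22 buds per sample. The 4 cyclopamine pools came from tadpoles exposed for 24 h to cyclopamine at 1 µg/ml in their tank water, and the 4 ethanol pools from tadpoles given its solvent alone for 24 h. Strain and genotype were not given in the labels used here. The arrays form 4 pairs of 1 ethanol and 1 cyclopamine pool that were exposed and processed together. Partners were matched by the numbers in the sample titles. Clutch A gave pairs 1 and 2 while clutch B gave the others. Each pool holds many animals, and in such bulk samples fewer cells of a type and less RNA per cell cannot be told apart.

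In a vertebrate limb bud, Sonic hedgehog (SHH) is released by a small group of mesenchyme cells at the posterior margin and patterns the digits. It binds Patched (PTCH1), which otherwise holds the membrane protein Smoothened (SMO) inactive. Active SMO works through the primary cilium on the transcription factors GLI1, GLI2 and GLI3, of which GLI3 acts mainly as a repressor where no signal arrives. PTCH1, GLI1 and HHIP, a membrane protein that traps the ligand, are themselves raised by the signal and serve as its usual readouts. Cyclopamine is a plant alkaloid that binds and blocks SMO.

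Limb identity was checked with 14 probe sets of limb mesenchyme genes, of which 11 to 14 were above the floor on each array. They include pitx1.L, the hindlimb factor, and tbx4.L, with 1 tbx4.L probe set at the floor on 6 of 8 arrays and the other on none. On the cyclopamine array of pair 4, which stood apart in these lists, the mean log2 value of 7 cartilage probe sets was 9.45, against 8.19 to 8.59 on the 7 other arrays, and that of 14 epidermal probe sets was 8.06, against 8.28 to 9.34. The summed normalized intensity of the cartilage list was 4663 to 5664 on the ethanol arrays and 4698 to 9908 on the cyclopamine arrays, with matn1.L at the floor on 7 of 8 arrays. That of the epidermal list was 9164 to 16187 and 7902 to 19740, with tp63.L at the floor on 5 of 8. The mean of 20 muscle probe sets was lowest on both arrays of pair 1, at 7.12 and 7.38 against 7.74 to 8.98 on the others. Its summed intensity was 4012 to 15544 on the ethanol arrays and 4848 to 20766 on the cyclopamine arrays.

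Not all members could be seen above background. 20 control probe sets for a bacterial gene or artificial tag sequences served as a background. They were chosen after their values were seen, and whether any was added to the samples is not stated in the sources used here. Their deposited intensities ran from 1.3 to 94.1 with a median of 15.05, and the highest per array lay between 48.2 and 94.1. Intensities of different probe sets are not on a shared scale, so a dim probe set does not show that its transcript was rare. 4 of the 11 member probe sets, those of shh.L, smo.L (both) and gli3.L, were above all 20 controls on all 8 arrays. gli2.L was above them on 6 arrays, the brighter hhip.L probe set on 5, gli2.S on 4 and ptch1.S on 2. smo.S, the dimmer hhip.L probe set and gli1.S were above all 20 controls on no array.

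**Figure D1:**
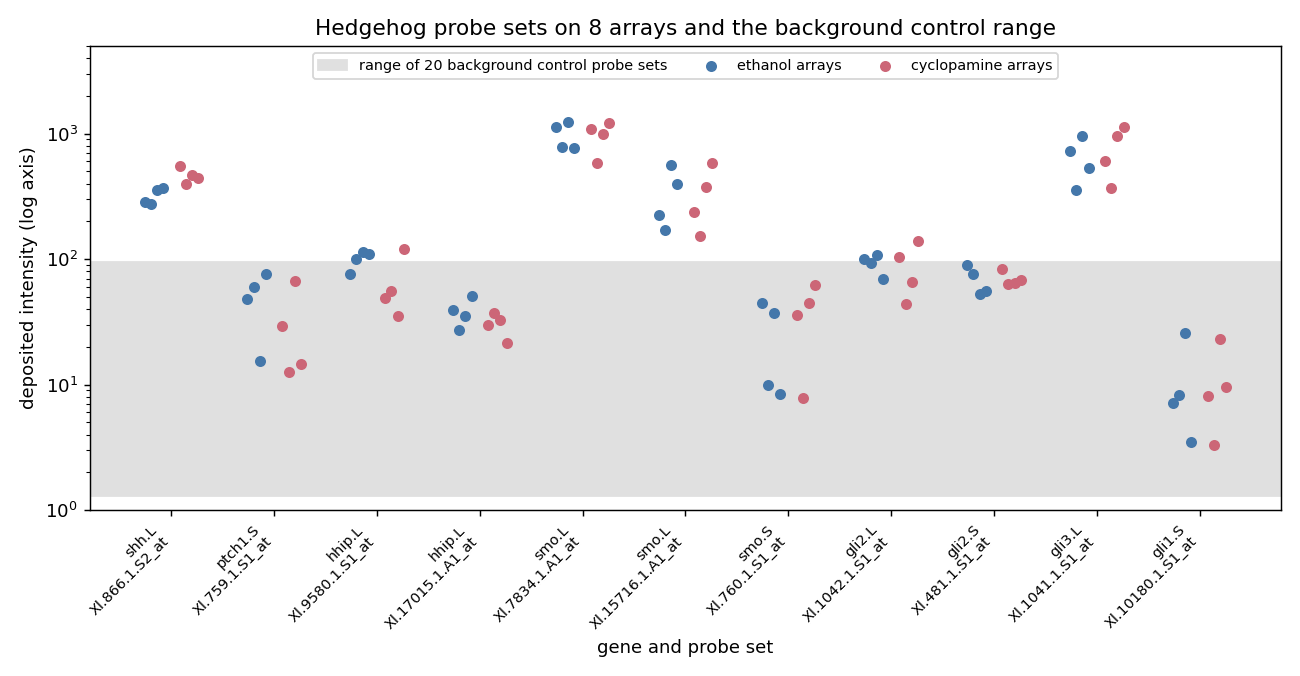
Deposited intensity (log axis) of the 11 member probe sets, with 1 point per array, ethanol in blue and cyclopamine in red, ordered within a group by pair number. The grey band is the range of the 20 background control probe sets over all 8 arrays, 1.3 to 94.1, and gli1.S lies inside it throughout while shh.L, both smo.L probe sets and gli3.L lie above it.

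The ligand and the inhibitor HHIP lay on opposite sides of the ethanol level after cyclopamine. shh.L was 1.43-fold higher, and its value was above that of the ethanol partner in all 4 pairs. The brighter hhip.L probe set had a log2 difference of -0.76, with the cyclopamine array below its partner in all 4 pairs after quantile normalization. In pair 4 this was by -0.03, and the deposited intensities ran the other way, 110.6 with ethanol and 119.7 with cyclopamine. The probe set was above background on 1 of the 4 cyclopamine arrays, so the size of the difference was poorly measured. Neither passed limma with Benjamini-Hochberg adjustment over 13947 probe sets, in which 2 probe sets of the whole array (0.0143%) were called and none of the 10 member probe sets tested. At an unadjusted p under 0.05, these 2 of the 10 member probe sets passed, beside 6.16% of all probe sets tested, 2.37% higher and 3.79% lower.

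shh.L (probe set Xl.866.1.S2_at) had normalized intensities of 290.9, 300.2, 337.1 and 364.0 on the ethanol arrays of pairs 1 to 4. On the cyclopamine arrays of the same pairs it had 552.5, 411.0, 464.1 and 426.3. The lowest cyclopamine value was above the highest ethanol value, so the groups did not overlap, which held for 3.68% of all probe sets tested and for 1.32% with cyclopamine higher. The mean log2 values were 8.33 ± 0.15 (SD, n = 4) with ethanol and 8.85 ± 0.19 (SD, n = 4) with cyclopamine. The log2 difference was 0.52 with a standard error of 0.13 and a 95% interval of 0.22 to 0.81, or 1.17-fold to 1.75-fold. Its limma p was 0.00352, the 92nd smallest, and the adjusted p was 0.522. An exact two-sided permutation test over the 70 ways of assigning 8 arrays to groups of 4 gave p = 0.0286, the smallest this design allows. Per pair, the log2 difference was 0.93, 0.45, 0.46 and 0.23, largest in pair 1 and smallest in pair 4. Cyclopamine was higher in all 4 pairs for 6.56% of all probe sets tested. Without pair 4 the log2 difference was 0.62. The part of the tissue differences given above in these values was not tested.

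The response of shh.L was 0.69 on the log2 scale in clutch A and 0.34 in clutch B. The difference between the clutches was 0.34 with clutch B lower, and the interaction term of limma gave an unadjusted p of 0.203 and an adjusted p of 0.999. No member probe set had an unadjusted p under 0.05 for this term, beside 3.76% of all probe sets tested. The probe sets whose log2 values followed shh.L most closely over the 8 arrays were those of zfand4.L, with a Pearson r of 0.961, scd.S, a fatty acid desaturase, with 0.914, and msx2.L, a limb mesenchyme transcription factor, with 0.909. They were picked as the closest of 7034 candidates over arrays that share the treatment groups, so no test is given.

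hhip.L was read by a probe set above background on 5 of 8 arrays and one within it on all 8. The brighter (Xl.9580.1.S1_at) had normalized intensities of 82.7, 103.2, 113.6 and 110.4 on the ethanol arrays of pairs 1 to 4. On the cyclopamine arrays it had 46.5, 58.5, 37.0 and 108.3. Cyclopamine arrays 1, 2 and 3 lay below every ethanol array, and the cyclopamine array of pair 4 lay within the ethanol range. All 4 ethanol arrays were above the 20 background controls, while of the cyclopamine arrays only that of pair 4 was. The bar was not the same in the groups. The highest control in pairs 1 to 4 was at a deposited 48.2, 74.2, 57.2 and 70.4 with ethanol. With cyclopamine it was at 78.7, 84.5, 59.8 and 94.1. The mean log2 values were 6.67 ± 0.21 (SD, n = 4) and 5.90 ± 0.60 (SD, n = 4). The log2 difference was -0.76 with a standard error of 0.28 and a 95% interval of -1.41 to -0.12. limma gave an unadjusted p of 0.026 and an adjusted p of 0.753, and the exact permutation test gave 0.0857. Per pair the log2 difference was -0.83, -0.82, -1.38 and -0.03, and without pair 4 it was -1.02. The sign in pair 4 rests on quantile normalization, as the deposited intensities there were 110.6 with ethanol and 119.7 with cyclopamine. Cyclopamine was lower in all 4 pairs for 9.28% of all probe sets tested. Since cyclopamine array 3 was held at the floor, an intensity of 43.7 (the 20th percentile of all values), the size depends on that floor. The log2 difference was -0.28 with a floor at the 30th percentile and -0.82 with none.

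The dimmer hhip.L probe set (Xl.17015.1.A1_at) had normalized intensities of 44.6, 26.5, 38.8 and 48.5 with ethanol and 27.6, 38.0, 34.5 and 17.1 with cyclopamine. It was at the floor on 2 ethanol and all 4 cyclopamine arrays, and below at least 1 background control on every array, so no fold is given. The log2 difference between the brighter and the dimmer probe set was 1.17 ± 0.20 (SD, n = 4) with ethanol and 0.45 ± 0.60 (SD, n = 4) with cyclopamine. These differ by -0.72, with p = 0.114 in the exact permutation test. Without cyclopamine replicate 4 the difference was -1.01, with an exact p of 0.0286. With the dimmer probe set at the floor on 6 of 8 arrays, the comparison says little about whether the probe sets respond alike.

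Set against each other within each array, shh.L and hhip.L lay further apart with cyclopamine. The log2 value of shh.L minus that of the brighter hhip.L probe set was 1.66 ± 0.13 (SD, n = 4) with ethanol and 2.94 ± 0.72 (SD, n = 4) with cyclopamine. It lay between 1.54 and 1.81 on the ethanol arrays and between 1.98 and 3.57 on the cyclopamine arrays, without overlap. The difference of 1.28 had p = 0.0286 in the exact two-sided permutation test, the smallest possible. It combines the 2 member probe sets described above and is no separate evidence, and since hhip.L was not above background on 3 cyclopamine arrays its size depends on the floor, with 0.79 for a floor at the 30th percentile. By pair it was 1.76, 1.27, 1.84 and 0.26, smallest in pair 4. Swapping labels only within pairs cannot give a p under 0.125, which was the value it gave. On the deposited values without quantile normalization the difference was 1.22 with an exact p of 0.0571. Without pair 4 it was 1.64, with an exact p of 0.1, the smallest for 3 arrays against 3. Against the dimmer hhip.L probe set, at the floor on 6 of 8 arrays, the difference was 0.56. Its exact p was also 0.0286, the value that shh.L gave alone. Against the other target, ptch1.S, the difference was 0.72 with an exact p of 0.0571, and pair 3 ran opposite at -0.20.

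**Figure D2:**
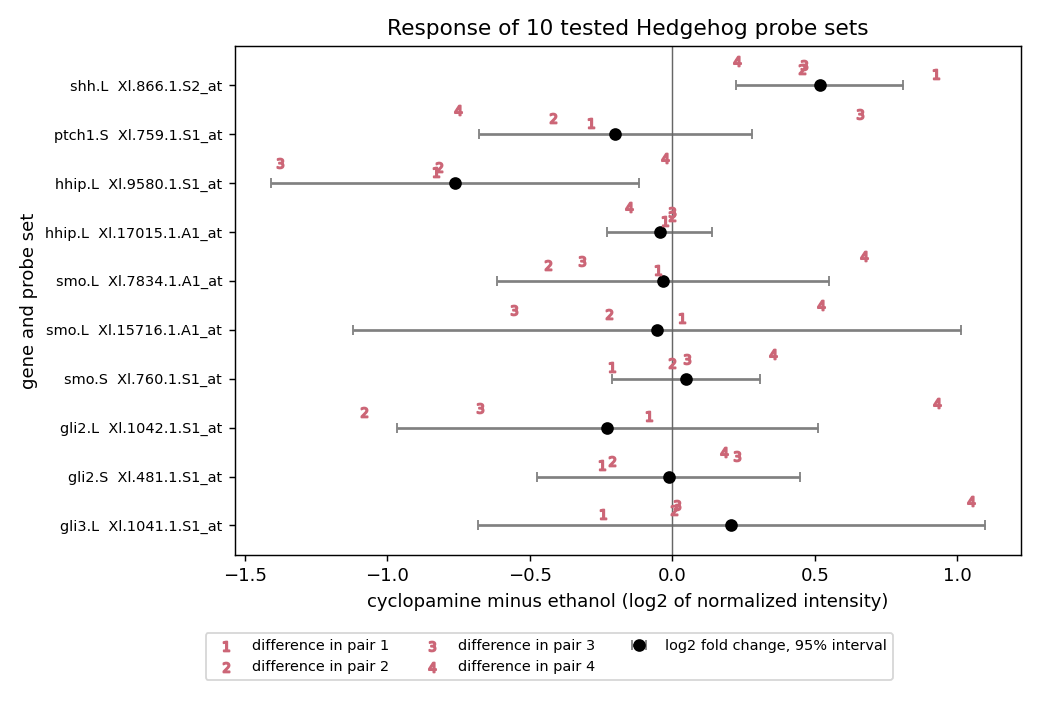
Log2 difference, cyclopamine minus ethanol, of the 10 tested member probe sets (black points, 4 arrays a group) with the 95% interval of limma. The red numerals are the differences within pairs 1 to 4, raised in steps only to keep them apart. The intervals of shh.L, 0.22 to 0.81, and of the brighter hhip.L probe set, -1.41 to -0.12, do not include 0, and the other 8 do. ptch1.S, smo.S and the dimmer hhip.L probe set were at the floor on 4, 5 and 6 of 8 arrays. This narrows their intervals, so these do not measure an absence of change.

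The receptor and target ptch1.S was not separable from background on most arrays. Its probe set (Xl.759.1.S1_at) had normalized intensities of 53.4, 58.4, 17.3 and 73.7 with ethanol and 27.1, 13.4, 69.0 and 11.7 with cyclopamine. Ethanol array 4 and cyclopamine array 3 were the 2 arrays above all 20 background controls, 1 in each group. 1 ethanol and 3 cyclopamine arrays were at the floor, and the groups overlapped. The log2 difference was -0.20 with a 95% interval of -0.68 to 0.28, an adjusted p of 0.939 by limma and an exact p of 0.371. Pair 3 ran opposite to the other pairs, with log2 differences of -0.29, -0.42, 0.66 and -0.75. Without pair 4 the log2 difference was -0.016. Without the floor the log2 difference was -0.94 with an exact p of 0.257.

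gli1.S, the GLI factor whose transcript is itself a target of the signal, was at the floor on all 8 arrays. Its normalized intensities lay between 3.23 and 28.9, and it was not tested. 2 to 14 of the 20 background controls were below it on an array.

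Smoothened itself, the protein that cyclopamine binds, was read on smo.L without a difference between treatments beyond the spread of the arrays. The brighter probe set (Xl.7834.1.A1_at) had normalized intensities of 1124, 812.0, 1231 and 764.4 with ethanol and 1086, 600.1, 988.9 and 1217 with cyclopamine. The groups overlapped, though cyclopamine array 2 lay below every ethanol array. The log2 difference was -0.03 with a 95% interval of -0.61 to 0.55 and an adjusted p of 0.993 by limma. The dimmer probe set (Xl.15716.1.A1_at) had 231.1, 184.3, 538.5 and 397.3 with ethanol and 236.7, 158.1, 366.4 and 570.6 with cyclopamine. Its log2 difference was -0.06 with a 95% interval of -1.12 to 1.01. Without pair 4, the log2 differences were -0.27 for the brighter and -0.25 for the dimmer probe set. The intervals over all arrays leave room for a change of about the size seen for shh.L in either direction. smo.S (Xl.760.1.S1_at) was between 7.98 and 50.6 with ethanol and between 8.22 and 55.9 with cyclopamine. It was at the floor on 3 and 2 arrays and below at least 1 background control on all 8, so no fold is given.

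The treatment responses of the smo.L probe sets were -0.02 apart on the log2 scale, with an exact p of 0.943, but the probe sets diverged by clutch. The dimmer probe set lay between 158.1 and 236.7 on the 4 arrays of clutch A and between 366.4 and 570.6 on those of clutch B, without overlap, as did 11.9% of all probe sets tested. Clutch B was 2.30-fold higher, a log2 difference of 1.20 with a standard error of 0.20 and an adjusted p of 0.0461 by limma with treatment as a covariate. Between the clutches 181 of the 13947 probe sets (1.30%) passed, and clutch B was the higher in 0.559% of those tested. The call was lost without any 1 of the 8 arrays, with adjusted p from 0.0689 to 0.14, and without pair 4, with 0.187. With no floor it was 0.103. The brighter probe set was 1.17-fold higher in clutch B, a log2 difference of 0.23 with an adjusted p of 0.643. The log2 value of the dimmer minus that of the brighter was -2.14 ± 0.15 (SD, n = 4) in clutch A and -1.17 ± 0.21 (SD, n = 4) in clutch B. This difference of 0.97 between clutches had p = 0.0286 in the exact permutation test, and 0.0667 without pair 4. These tests take the 8 arrays as independent. With whole pairs permuted, 2 against 2, both comparisons gave an exact p of 0.333, the smallest possible, so that with pairs as the unit the difference cannot pass. The clutch comparison of smo.L was chosen after its values were seen.

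**Figure D3:**
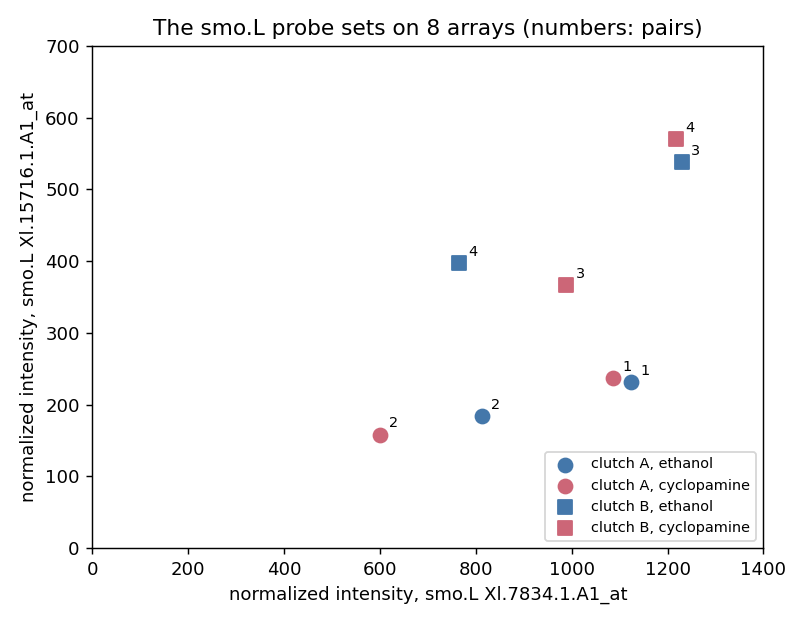
Normalized intensity of the dimmer smo.L probe set (vertical axis) against the brighter (horizontal axis), with 1 point per array numbered by pair. Circles are clutch A and squares clutch B, ethanol in blue and cyclopamine in red. The squares all lie above the circles on the vertical axis, 366.4 to 570.6 against 158.1 to 236.7, while the clutches overlap on the horizontal axis.

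Among the transcription factors that the signal acts on, gli3.L was above background and the pairs did not share a direction. gli3.L (Xl.1041.1.S1_at) had normalized intensities of 714.5, 384.7, 942.2 and 539.1 with ethanol and 603.0, 386.5, 953.7 and 1115 with cyclopamine. The log2 differences by pair were -0.24, 0.01, 0.02 and 1.05, so that pairs 2 and 3 were nearly equal and pair 4 stood apart. The mean log2 difference was 0.21 with a 95% interval of -0.68 to 1.10 and an adjusted p of 0.959, and -0.07 without pair 4. Clutch B was 1.70-fold higher than clutch A, with an unadjusted p of 0.0332 and an adjusted p of 0.189 by limma. At an unadjusted p under 0.05, 21.7% of all probe sets tested differed between the clutches.

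The gli2 copies, which encode the main activator at the start of the response, were both dim. gli2.L (Xl.1042.1.S1_at) had normalized intensities of 106.4, 96.0, 108.2 and 66.9 with ethanol and 100.6, 45.4, 67.8 and 127.2 with cyclopamine. Its log2 differences by pair were -0.08, -1.08, -0.68 and 0.93, with a mean of -0.23, a 95% interval of -0.97 to 0.51 and an adjusted p of 0.942. Without pair 4 it was -0.62. gli2.S (Xl.481.1.S1_at) had 96.7, 75.7, 56.2 and 53.9 with ethanol and 81.5, 65.4, 65.7 and 61.1 with cyclopamine. Its log2 differences by pair were -0.25, -0.21, 0.23 and 0.18, lower with cyclopamine in both pairs of clutch A and higher in both of clutch B. Their mean was -0.01 with a 95% interval of -0.47 to 0.45 and an adjusted p of 0.996. Clutch B was lower by -0.42 on the log2 scale, with an unadjusted p of 0.0197 and an adjusted p of 0.15.

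Pair 4 was the only pair in which both smo.L probe sets, gli2.L and gli3.L were all higher with cyclopamine, by 0.67, 0.52, 0.93 and 1.05 on the log2 scale. In the same pair the mean of the cartilage list was 1.25 higher, that of the muscle list 0.89 higher and that of the epidermal list 1.09 lower. In pairs 1 to 3 the cartilage list differed by -0.20, -0.15 and -0.09 and the epidermal list by 0.25, 0.47 and -0.04. The muscle list differed by 0.26, 0.55 and -0.13, so that it was also higher in pairs 1 and 2. The part of this tissue difference in the values of smo.L, gli2.L and gli3.L was not tested. For shh.L, and for the brighter hhip.L probe set, all 4 pairs had the same sign on normalized values, so leaving out pair 4 could not turn the direction. For hhip.L the difference in pair 4 was -0.03, and the deposited intensities of that pair had the opposite sign. Without pair 4 their log2 differences were 0.62 and -1.02, and the part of the tissue difference in them was not tested.

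**Figure D4:**
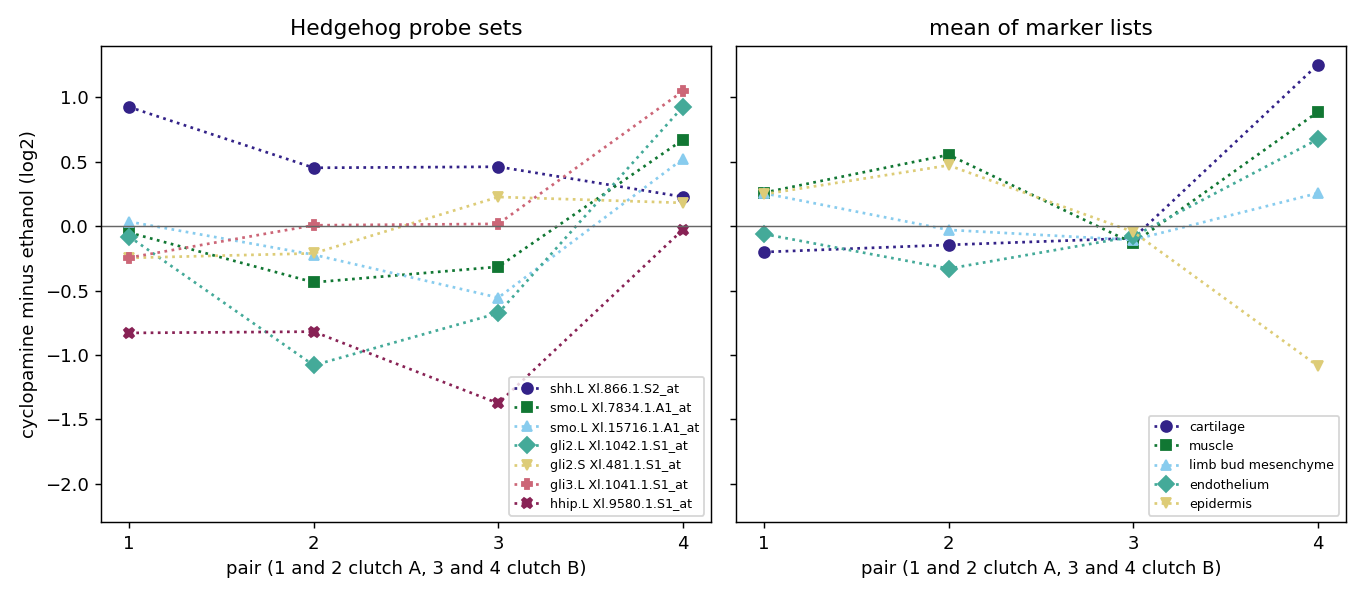
Log2 difference, cyclopamine minus ethanol, in each pair for 7 member probe sets (left) and for the mean of 5 marker lists (right). Dotted lines only join the points of a probe set or list. In pair 4, gli3.L (1.05), gli2.L (0.93), smo.L (0.67 and 0.52) and the cartilage list (1.25) are high and the epidermal list is low (-1.09). shh.L is above 0 and hhip.L below 0 in all 4 pairs, hhip.L by only -0.03 in pair 4, where its deposited intensities have the opposite sign.

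The brighter smo.L probe set and gli2.L varied together over the arrays, with a Pearson r of 0.874 (permutation p = 0.006, adjusted p = 0.0994 over 21 relations between 7 member probe sets). Spearman's rho was 0.952 (permutation p = 0.00114, adjusted p = 0.0239). Without the 2 arrays farthest from the median of smo.L, r was 0.532, so that the relation rests in part on them. They were cyclopamine array 2 and ethanol array 4, the arrays on which gli2.L was not above all 20 background controls. gli3.L followed the brighter smo.L probe set with r = 0.836 and rho = 0.738 (permutation p = 0.0107 and 0.0458, adjusted p = 0.0994 and 0.321), and r was 0.798 without the 2 farthest arrays. With the group means removed the values were 0.890 and 0.861. Without pair 4, over 6 arrays, r was 0.838 and rho 0.943 for gli2.L, and r was 0.810 and rho 0.600 for gli3.L, with no test. A clutch holds 4 arrays, too few for a value of its own, and the 8 arrays share pairs, so they are not fully independent. The relation with gli2.L was weaker for the dimmer smo.L probe set, with r = 0.459 and rho = 0.595 (permutation p = 0.248 and 0.132, adjusted p = 0.632 and 0.347). Without the 2 arrays farthest from the median of that probe set, r was -0.295. With gli3.L the dimmer smo.L probe set had r = 0.843 and rho = 0.762 (permutation p = 0.0142 and 0.0368, adjusted p = 0.0994 and 0.321). The pair of smo.L probe sets correlated with r = 0.636 and rho = 0.643 (permutation p = 0.0963 and 0.0962, adjusted p = 0.368 and 0.337). By the same measure, the probe sets most like the brighter smo.L one were rps2.L, pds5b.L and gpm6b.S, with r from 0.973 to 0.992, and those most like the dimmer one were rbm5.S, srrt.L and nipbl.L, with r from 0.982 to 0.985. The lists do not share a gene. For gli3.L they were papola.L, ptprs.S and neo1.L, from 0.985 to 0.992, for gli2.L ccnj.S, znf521.S and mturn.S, from 0.955 to 0.979, and for gli2.S sec23ip.S, LOC443660 and lrrc57.L, from 0.958 to 0.978.

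The rest of the pathway was described by 5 lists, with 82 probe sets tested, some of them in more than 1 list. At an unadjusted p under 0.05, 1 of the 82 was higher and 8 were lower with cyclopamine, 11% beside 6.16% of all probe sets tested. With an array left out in turn the count in either direction ran from 6 to 11. It was 1 higher and 5 lower without ethanol replicate 2, and 1 higher and 10 lower without ethanol replicate 4. Without ethanol replicate 1 it was 3 higher and 4 lower. With no floor the counts were 2 and 5, and with a floor at the 10th percentile or the methods' t-test 1 and 5. None passed the adjusted threshold. The median log2 difference over all probe sets tested was 0.00.

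Of 8 probe sets for genes that release or receive the ligand, dhh.L, dhh.S and ihh.S, the other hedgehog ligands, stayed at the floor on every array. The 5 tested had a median log2 difference of 0.14 and none had an unadjusted p under 0.05. That median was -0.026 without pair 4, -0.035 without ethanol replicate 2 and -0.023 without cyclopamine replicate 4, so its sign rests on single arrays. gpc4.L, a cell surface glypican, was at 0.30 on one of its probe sets, with an adjusted p of 0.932, and at 0.02 on the other, and hhatl.S was at 0.15. The co-receptor cdon.L was at -0.02 and at the floor on 6 of 8 arrays.

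Of 33 probe sets for transducers below SMO, 1 was higher and 2 were lower at an unadjusted p under 0.05, and the median was 0.02. These 3 were 9.09% of the list, beside 6.16% of all probe sets tested. csnk1a1.S, a casein kinase that phosphorylates SMO and the GLI proteins, was 1.22-fold higher with an adjusted p of 0.665. It was at 861 to 997 with ethanol and 1070 to 1190 with cyclopamine, without overlap, as in 3.68% of all probe sets tested. The other copy, csnk1a1.L, was at 0.14 with an unadjusted p of 0.219 by limma. csnk1g1.S was at 0.25 with an unadjusted p of 0.109 on 1 of its 5 probe sets, which ran from 0.02 to 0.35. cul1.S, of the ubiquitin ligase that leads to the processing of GLI3, was 1.44-fold lower (adjusted p of 0.804), and cul3.S 1.22-fold lower (adjusted p of 0.762). Of 10 probe sets for transport in the cilium, 1 (10%) was lower at an unadjusted p under 0.05, beside 3.79% of all probe sets tested. This was ift20.L, 1.27-fold lower with an unadjusted p of 0.0476 and an adjusted p of 0.804 by limma. It was higher with cyclopamine in 1 of 4 pairs and did not pass with no floor. The median of the cilium list was -0.08. kif3b.S, a motor subunit, was at -0.27 and ift27.L at 0.22.

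In mouse and chick limb buds SHH raises a set of genes that were represented by 21 probe sets. 20 were tested, and fgf4.S was at the floor throughout. 15 of the 20 (75%) had a negative log2 difference, beside 49.7% of all probe sets tested, and the median was -0.06. This lean was not particular to the list, as the share was 80% in the cilium list and 64.7% among the genes upstream of shh described below. It was 39.4% among the transducers and 20% among the genes that release or receive the ligand. fgf4.L and foxf1.L were at the floor on 3 ethanol and all 4 cyclopamine arrays, so their differences could only be negative. Several genes have more than 1 probe set in this count, and the list was chosen with earlier results of these data known. At an unadjusted p under 0.05, 3 (15.0%) were lower, beside 3.79% of all probe sets tested, and none was higher. In 5 (25.0%) cyclopamine was lower in all 4 pairs, beside 9.28%. bmp2.S, a growth factor of the limb mesenchyme and ridge, was 1.50-fold lower, at 219 to 314 with ethanol and 142 to 221 with cyclopamine, with an adjusted p of 0.665. hoxd13.S, a factor of the distal limb that is also in the mesenchyme list above, was 1.50-fold lower, at 1130 to 1790 and 710.0 to 1140, with an adjusted p of 0.665. In that mesenchyme list of 14 probe sets, 4 (28.6%) had an unadjusted p under 0.05. Besides hoxd13.S these were higher with cyclopamine, msx2.L by 0.49 and meis1.S by 0.42 and 0.35 on the log2 scale. The part of such limb tissue differences in the list of genes raised by SHH was not tested. The third was ccnd2.L, cyclin D2, 1.59-fold lower with an adjusted p of 0.753. grem1.L, the BMP antagonist that links SHH to the ridge, was 1.26-fold lower with an unadjusted p of 0.053, and bmp2.L 1.22-fold lower with 0.0572. ccnd2.L, grem1.L and bmp2.L were named after their values were seen. The highest were mycn.L at 0.14 and jag1.L at 0.10. Without pair 4, 4 of the list were lower at an unadjusted p under 0.05 and the median was -0.21.

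Genes that act upstream of shh in the limb bud were covered by 20 probe sets, of which 17 were tested and gata4.L, gata4.S and gata6.S stayed at the floor on every array. 2 (11.8%) were lower at an unadjusted p under 0.05, beside 3.79% of all probe sets tested, and none was higher. The median was -0.07. ets1.L, an ETS factor that binds the limb enhancer of Shh in mouse, was 1.57-fold lower with an adjusted p of 0.409. It was at 120.0 to 171 with ethanol and 76.0 to 91.9 with cyclopamine, without overlap, as in 3.68% of all probe sets tested. The other ets1.L probe set was at -0.06 and at the floor on 7 of 8 arrays, and ets1.S was at -0.21. hand2.S, a factor of the posterior mesenchyme that activates Shh in mouse, was 1.70-fold lower, at 1490 to 2740 and 850.0 to 1490, with an adjusted p of 0.727. It was higher with cyclopamine in 1 of 4 pairs. The other copy, hand2.L, was at -0.44 with an unadjusted p of 0.132 by limma. etv4.L, an ETS factor that restricts Shh to the posterior margin in mouse, was at 0.28 with an unadjusted p of 0.1, and pbx2.L at 0.25.

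**Figure D5:**
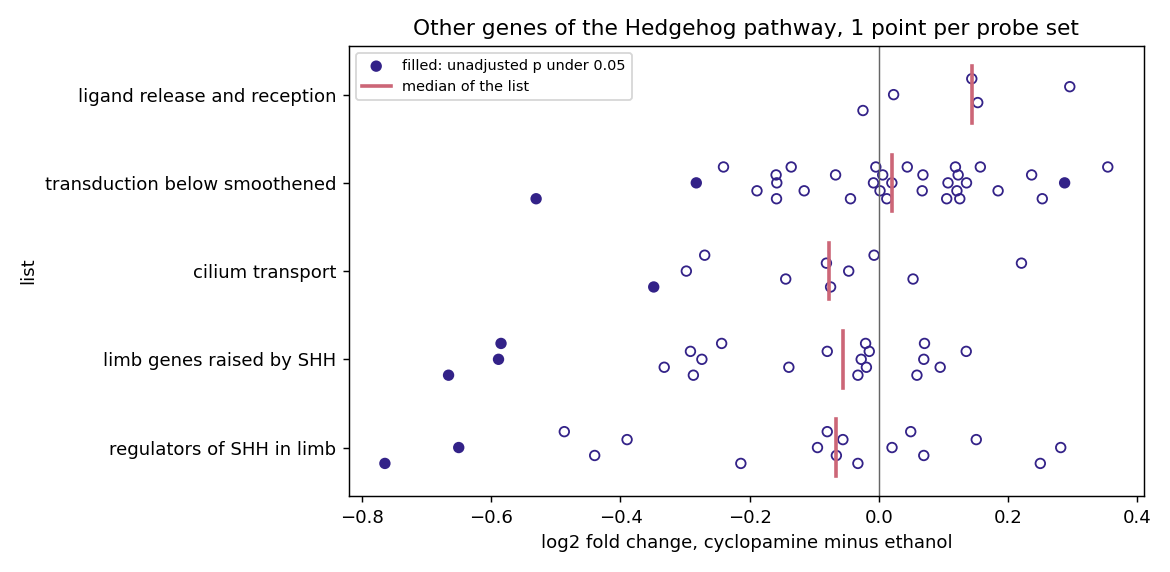
Log2 difference, cyclopamine minus ethanol, of the tested probe sets of 5 pathway lists, with 1 point per probe set, spread vertically only to keep points apart. Filled points have an unadjusted p under 0.05 and the red bar is the median of the list. In the list of limb genes raised by SHH 15 of 20 points lie below 0, with ccnd2.L, hoxd13.S and bmp2.S lowest. Among the 15 are fgf4.L and foxf1.L, at the floor on all 4 cyclopamine arrays, which could only be negative. In the cilium list 80% of the points lie below 0.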

How the data were processed

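RNA from 8 pools of *X. laevis* hindlimb buds was hybridized to 8 Affymetrix Xenopus laevis Genome arrays of 1 colour, 1 per pool. The deposited values, made by the authors, are intensities on a linear scale that the labels call normalized. Their summarization was not given in the sources used here. With the bottom and top 2% of probe sets trimmed, the mean was 500.07 to 500.08 on every array, and the medians were 191.6 to 221. No pair of arrays shared more than 0.231% of its values. The number of arrays limits the precision, and no counts lie behind the values.

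Of 15611 probe sets, 120 controls were left out. 9304 of the rest had 1 gene symbol, 195 several and 5992 none. All 11 member probe sets matched a symbol in RefSeq for the assembly Xenopus_laevis_v10.1, used for names only. No sequences or coordinates are given. Array medians spread over 0.206 on the log2 scale, so intensities were quantile-normalized, floored at their 20th percentile (43.7, log2 5.45) and converted to log2. The 1544 probe sets at this floor on all arrays were left out and 13947 were tested, each apart, with limma 3.58.1 in R 4.3.3 and Benjamini-Hochberg adjustment at 0.05. Figures were drawn with matplotlib 3.10.9.

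Single values were compared by exact two-sided permutation tests over arrays. The clutch comparison had treatment as a covariate, and the response by clutch was tested as an interaction. On simulated data with 200 of 13947 probe sets changed in each of 10 simulations of cyclopamine against ethanol, the share called by limma was 13.1% at a log2 change of 0.5, 55.5% at 1 and 91.7% at 2, and 0.048% of unchanged probe sets were called. The simulated noise was normal and independent, with the SDs shuffled over probe sets. It had no pair or clutch differences and no floor, so these shares may not hold for the real arrays.

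Named genes are all members, the 2 probe sets of smallest p in each direction per pathway list, and the 3 probe sets most like each member that was above the floor on all arrays. Not all genes under this rule are given. The members and lists were chosen with earlier results of these data known. The study's methods state that a pair shares clutch, day of exposure and extraction. They do not say which samples are partners, so the partners were taken from the numbers in the sample titles. Deviations from the group means correlated by 0.367, 0.507, 0.302 and -0.08 in pairs 1 to 4. In clutch A each ethanol array correlated most with its own partner. In clutch B they did not follow the pairs. Ethanol 3 correlated more with cyclopamine 4 (0.508) than with its partner, and ethanol 4 more with cyclopamine 3 (0.269) than with its partner. The main comparison has no block, after the study's 2-sample statistic. Alternatives tried were blocks of pair or clutch, other scalings, floors and filters, the methods' t-test, averaging probe sets per gene, and leaving out each array. Leaving out pair 4 was chosen after seeing the data.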

Additional observations from a re-analysis of the deposited data

Results flagged for a closer look

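The response of gli2.S (Xl.481.1.S1_at) ran in opposite directions in the clutches. Cyclopamine was lower in both pairs of clutch A, by -0.25 and -0.21 on the log2 scale, and higher in both pairs of clutch B, by 0.23 and 0.18. The responses differed by 0.43 on the log2 scale, with an unadjusted p of 0.134 and an adjusted p of 0.999 from the interaction term of limma, so the difference was not larger than the spread of the arrays. The probe set was above all 20 background controls on 4 of 8 arrays. Over all probe sets tested, 3.76% had an unadjusted p under 0.05 for this term and none passed the adjusted threshold. In 22 groups of 4 values for the member probe sets, no array was an outlier by Dixon's test.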

How the results depend on the processing

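Of 181 alternative fits of single member probe sets, 161 kept the direction and 20 turned it, and none was called. shh.L kept its direction in all 19 of its fits, between 0.43 and 0.62 on the log2 scale. Its groups did not overlap, so leaving out an array or a pair could hardly turn it. The blocks, floors, filters and the methods' t-test all left its difference at 0.52, and shh.L lay above every floor. Its kept direction is thus little evidence of robustness. The brighter hhip.L probe set kept its direction in all 18 of its fits, between -1.05 and -0.28. Its unadjusted p under 0.05 was less stable. It was lost on deposited values, with a floor at the 30th percentile and with the methods' t-test. It was also lost without ethanol replicate 2, 3 or 4, and without cyclopamine replicate 1, 2 or 3. With the pair or the clutch as a block it was kept. The filter on the mean left this probe set out as too dim, so that setting gave no value for it or for shh.L against hhip.L. ptch1.S and the dimmer hhip.L probe set were tested in 17 fits each and kept theirs. The dimmer hhip.L probe set was at the main floor on all 4 cyclopamine arrays, so with that floor its difference could only be negative. The turned values lay between -0.074 and 0.25 on the log2 scale, against main values of -0.23 to 0.21 for the same probe sets. Those outside the single arrays left out were 0.046 on deposited values and 0.012 with array medians subtracted for gli2.S, and -0.053 for smo.S and -0.074 for gli3.L without pair 4. With each array left out in turn, smo.L lay between -0.16 and 0.18 (brighter) and between -0.37 and 0.25 (dimmer), smo.S between -0.036 and 0.10, gli2.L between -0.46 and 0.041, gli2.S between -0.13 and 0.15, and gli3.L between -0.016 and 0.49.

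With the pair as a replicate block, no member was called, the adjusted p was 0.538 for both shh.L and the brighter hhip.L probe set, and the same number of probe sets passed over the array, 2. The difference between shh.L and hhip.L, 1.28, had p = 0.125 within pairs and 0.0556 within clutches, each the smallest that such an exact permutation test allows. The block changed no call of a member or list at the adjusted threshold. Counts at an unadjusted p under 0.05 did change in 2 lists with the pair as a block. Among genes raised by SHH, 5 were lower instead of 3. Among transducers below SMO, 1 was higher and 0 were lower instead of 1 and 2, so cul1.S and cul3.S no longer passed.

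shh.L against hhip.L was 1.22 on deposited values and 1.22 with array medians subtracted, both with an exact p of 0.0571. It was 0.79 with a floor at the 30th percentile. Without pair 4 it was 1.64 with p = 0.1, and with each array left out 1.07 to 1.61 with exact p of 0.0286 to 0.0571. The smo.L probe sets differed in response by 0.0080 on deposited values, by 0.0080 with medians subtracted, by 0.019 without pair 4, and by -0.24 to 0.21 with each array left out. Their clutch difference was 0.83 without pair 4 with an exact p of 0.0667, and 0.90 to 1.06 with each array left out. For hhip.L the probe set difference lay between -1.01 and -0.57 with each array left out. Over the whole array, 6 probe sets were called with clutch as a block, 4 with the filter on the mean, and 1 with no floor, with no filter and with the methods' t-test. It was 1 to 2 with an array left out. The causes were not tested. Members near background, ptch1.S, smo.S, gli1.S, the dimmer hhip.L probe set and, on 3 of 4 cyclopamine arrays, the brighter one, limit what the readouts of the signal can show.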
